A study of Mus musculus with 26 samples.

Results

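The 10 genes of the neuronal cytoskeleton and of early neurons described here were followed through mouse embryonic stem cells (ESCs) and the neural precursor cells (NPCs) made from them. They were Tubb3, Map1b, Map2, Dcx, Stmn2, Ina, Nefl, Gap43, Elavl3 and Elavl4, 10 of 55291 gene symbols counted. The members were listed by name and chosen by 2 measured values, the lower counts of Tubb3 in Grb10 pA ESCs and of Map1b in Podxl pA ESCs. For that reason the 10 genes are described, and not tested, in the comparisons of Podxl pA and Grb10 pA ESCs with parental ESCs. Tubb3 and Map1b are likewise not tested between NPCs and ESCs where those ESC libraries enter.

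Neurons hold their shape through microtubules and neurofilaments, and both are rebuilt when a precursor becomes a neuron. Tubb3 encodes the class III beta-tubulin used as a neuronal marker, Map1b, Map2 and Dcx encode proteins that bind microtubules, and Stmn2 encodes a stathmin that binds tubulin in growing axons. Ina and Nefl are neurofilament subunits, Gap43 is a membrane protein of growth cones, and Elavl3 and Elavl4 are RNA-binding proteins of the neuronal Elav family. In stem cell cultures these genes are commonly read as signs of neuronal differentiation.

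RNA-seq counts came from 26 libraries in 10 groups, all made from the mouse ESC line E14. In the rescue lines both copies of endogenous CTCF, a DNA-binding protein that shapes chromosome folding, carry a degron, the auxin receptor OsTIR1 is expressed from Rosa26, and Mnx1 carries an mCherry reporter. Every rescue library, wild-type (WT) included, was exposed for 24 h to 1 µM 5-Ph-IAA, which degrades the endogenous protein, and to 1 µg/mL doxycycline, which induces CTCF from the Tigre locus. That transgene was WT CTCF or CTCF without zinc finger 1 (ΔZF1), with 1 clone of each and 2 libraries of each as ESCs (ESC-WT and ESC-ΔZF1) and 2 as NPCs (NPC-WT and NPC-ΔZF1). The truncation lines were homozygous clones of E14 in which a cassette with a polyadenylation signal (pA) stops transcription early in Podxl or in Grb10. Parental, Podxl pA and Grb10 pA cells were sequenced as ESCs and as NPCs in 3 libraries each, without degron, auxin or doxycycline. NPCs were collected after 2 days in N2B27 medium. Since the ΔZF1 and truncation cells were single-cell clones, a difference between genotypes and a difference between clones cannot be told apart, and p-values measure the spread between libraries of a line.

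A library held 6425179 to 28730435 counts on genes in the rescue experiment and 1907505 to 8845087 in the other. Levels are given in CPM, counts scaled to a common library size with edgeR's TMM factors. Podxl was at 246 CPM in parental NPCs and at 22.5 CPM in Podxl pA NPCs, and Grb10 was at 795 and 54.6 CPM in parental and Grb10 pA NPCs. The RNA of Ctcf itself differed between lines. The ΔZF1 line had means of 846 CPM (ESCs) and 792 CPM (NPCs), against 570 and 462 CPM in the WT rescue line. A count per gene does not separate the endogenous RNA from that of the transgene. The paper reports that the WT and ΔZF1 transgenes gave similar amounts of protein by Western blot. Grb10 pA cells had 148 CPM (ESCs) and 158 CPM (NPCs), against 231 and 215 CPM in parental cells. Podxl pA cells had 244 and 217 CPM. The part of the Ctcf level in the member values was not tested. The ESC label was borne out by 7 pluripotency markers, Pou5f1 and Nanog among them, which summed to 3900 to 5810 CPM in ESC libraries and 368 to 841 CPM in NPC libraries. The NPC label was borne out only in part. Sox1 rose from 6.13 to 19.4 CPM in the WT rescue line and from 4.72 to 79.3 CPM in parental cells, but Pax6 reached no more than 9.1 CPM, Hes5 no more than 2 reads and Fabp7 no more than 1 read in any library. The 7 markers of neural progenitors summed to 279 to 317 CPM in ESC-WT and 134 to 178 CPM in NPC-WT. In parental cells they summed to 296 to 361 CPM in ESCs and 189 to 216 CPM in NPCs. By the test used below, Sox2 was lower and Sox1 higher in NPCs of every line, and Nes and Zbtb16 were higher in NPC-WT. Pax6 was higher in NPCs of the ΔZF1, parental, Podxl pA and Grb10 pA lines, at the low level given, and Nes was lower in Grb10 pA NPCs. The median log2 fold change of the progenitor markers tested was 1.56 in the WT rescue line and 0.76 in parental cells. A list of 6 markers of maturing neurons summed to between 25 and 57.8 CPM in all 26 libraries, but its genes moved in both directions. Of 4 tested, Syn1, Syp and Syt1 were called higher and Camk2b lower in NPC-WT than in ESC-WT, beside 41.9% of all genes. In the ΔZF1 line Syp and Syt1 were higher and Camk2b lower, beside 37.3%. In parental cells 1 of 2 tested, Syn1, was lower, beside 32.8%. Other cell types differed between lines: 10 extraembryonic endoderm markers summed to 294 to 320 CPM in NPC-WT and 2330 to 2350 CPM in NPC-ΔZF1. The NPC-WT libraries stood apart from each other, with a chi-square per degree of freedom of 63.1 against 2.92 to 6.37 between the libraries of the other rescue groups. In the other table the widest gaps were in parental ESCs (27.6) and Grb10 pA ESCs (22.4). Results on these groups are given with and without a library where that changes them. In bulk RNA, fewer cells of a type and less RNA per cell cannot be told apart.

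The promoters of the members whose values the comparisons turn on, where a sequence was at hand, are printed from the RefSeq table of GRCm38.p6, 5′ to 3′ on the gene's strand and ending before the first exon. Capitals mark short motifs found by letter search on both strands. The core promoter element searched for was TATAAA. The letters CCAAT and those of the GC-rich element, GGGCGG, stand for common elements of proximal promoters. Sites of basic helix-loop-helix factors were searched as CAGCTG, which reads the same on both strands, and in a second form as CAGATG. None of these letter strings contains another. The Tubb3 promoter lies at chr8:123411303-123411423 on the plus strand, that of Map1b at chr13:99516603-99516852 on the minus strand, that of Ina at chr19:47014431-47014680 on the plus strand and that of Elavl3 at chr9:22052024-22052273 on the minus strand.
Tubb3: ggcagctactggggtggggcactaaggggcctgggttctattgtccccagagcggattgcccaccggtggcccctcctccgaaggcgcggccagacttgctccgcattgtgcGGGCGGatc
Map1b: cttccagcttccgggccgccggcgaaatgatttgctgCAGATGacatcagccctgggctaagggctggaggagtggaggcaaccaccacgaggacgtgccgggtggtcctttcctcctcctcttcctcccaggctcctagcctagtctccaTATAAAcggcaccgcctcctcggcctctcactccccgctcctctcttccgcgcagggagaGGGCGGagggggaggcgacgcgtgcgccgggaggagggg
Ina: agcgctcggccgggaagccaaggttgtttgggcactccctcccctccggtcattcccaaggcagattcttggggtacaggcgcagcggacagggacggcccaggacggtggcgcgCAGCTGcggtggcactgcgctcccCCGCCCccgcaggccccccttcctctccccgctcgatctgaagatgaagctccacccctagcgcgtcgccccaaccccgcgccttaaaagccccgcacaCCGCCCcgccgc
Elavl3: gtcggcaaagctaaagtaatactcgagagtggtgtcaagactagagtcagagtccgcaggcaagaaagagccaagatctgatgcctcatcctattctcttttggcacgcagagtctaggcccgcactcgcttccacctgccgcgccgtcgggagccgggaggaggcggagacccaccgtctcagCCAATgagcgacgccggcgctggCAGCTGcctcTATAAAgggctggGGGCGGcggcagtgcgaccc

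The table held 11 promoter entries for 7 members, with 4 for Elavl4 and 2 for Dcx, some of which overlap, and the 250 bases before each start were searched. GGGCGG was in 5 of the 11 entries, from 5 members, and in 32.7% of 32851 promoters. TATAAA was in 4 entries (3 members) and in 12.4% of all promoters, CCAAT in 6 (4 members) and in 33.8%, CAGCTG in 4 (3 members) and in 13%, and CAGATG in 4 (2 members) and in 14.4%. Within the printed stretches, Elavl3 and Map1b carry TATAAA, and Map1b carries the only CAGATG. The octamer (ATTTGCAT), the left part of the REST element (TTCAGCACC) and a CTCF core motif were in none of the 11 entries and in 1.6%, 0.301% and 0.0335% of all promoters. A letter match is a description of the sequence, and no match says nothing about the factor.

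Tubb3 was the most abundant member per kilobase of exon in both ESC-WT and NPC-WT. In ESC-WT its level was 53.1 ± 3.06 CPM per kb (SD, n = 2), followed by Stmn2 at 37.8 ± 0.368, Ina at 12.5, Map1b at 5.46 ± 0.205, Gap43 at 4.73 ± 2.39 and Nefl at 4.25 ± 0.445 CPM per kb. Elavl3 (0.904), Elavl4 (0.443) and Map2 (0.287 CPM per kb) were the lowest members with reads. Gap43, whose ESC-WT libraries lay far apart, did not differ beyond its spread from Map1b or from Nefl. In NPC-WT the order was Tubb3 (37.4 ± 5.01 CPM per kb), Gap43 (35 ± 3.71), Ina (16.2 ± 0.375), Map1b (14.1 ± 0.481), Stmn2 (6.44 ± 0.866) and Nefl (5.27 ± 0.939). Here Gap43 had moved up to the level of Tubb3, from which it did not differ beyond the spread, and Stmn2 had moved down to that of Nefl. Parental NPCs ranked Tubb3 first too, at 34.8 ± 3.42 CPM per kb, then Ina at 27.8 ± 0.199, Map1b at 11.6 ± 1.9 and Stmn2 at 10.3 ± 0.661 (SD, n = 3), while Gap43 was at 3.54 ± 0.695. The rescue and the parental tables were normalized separately, so levels are ordered within a table and tests were made within a table only.

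**Figure D1:**
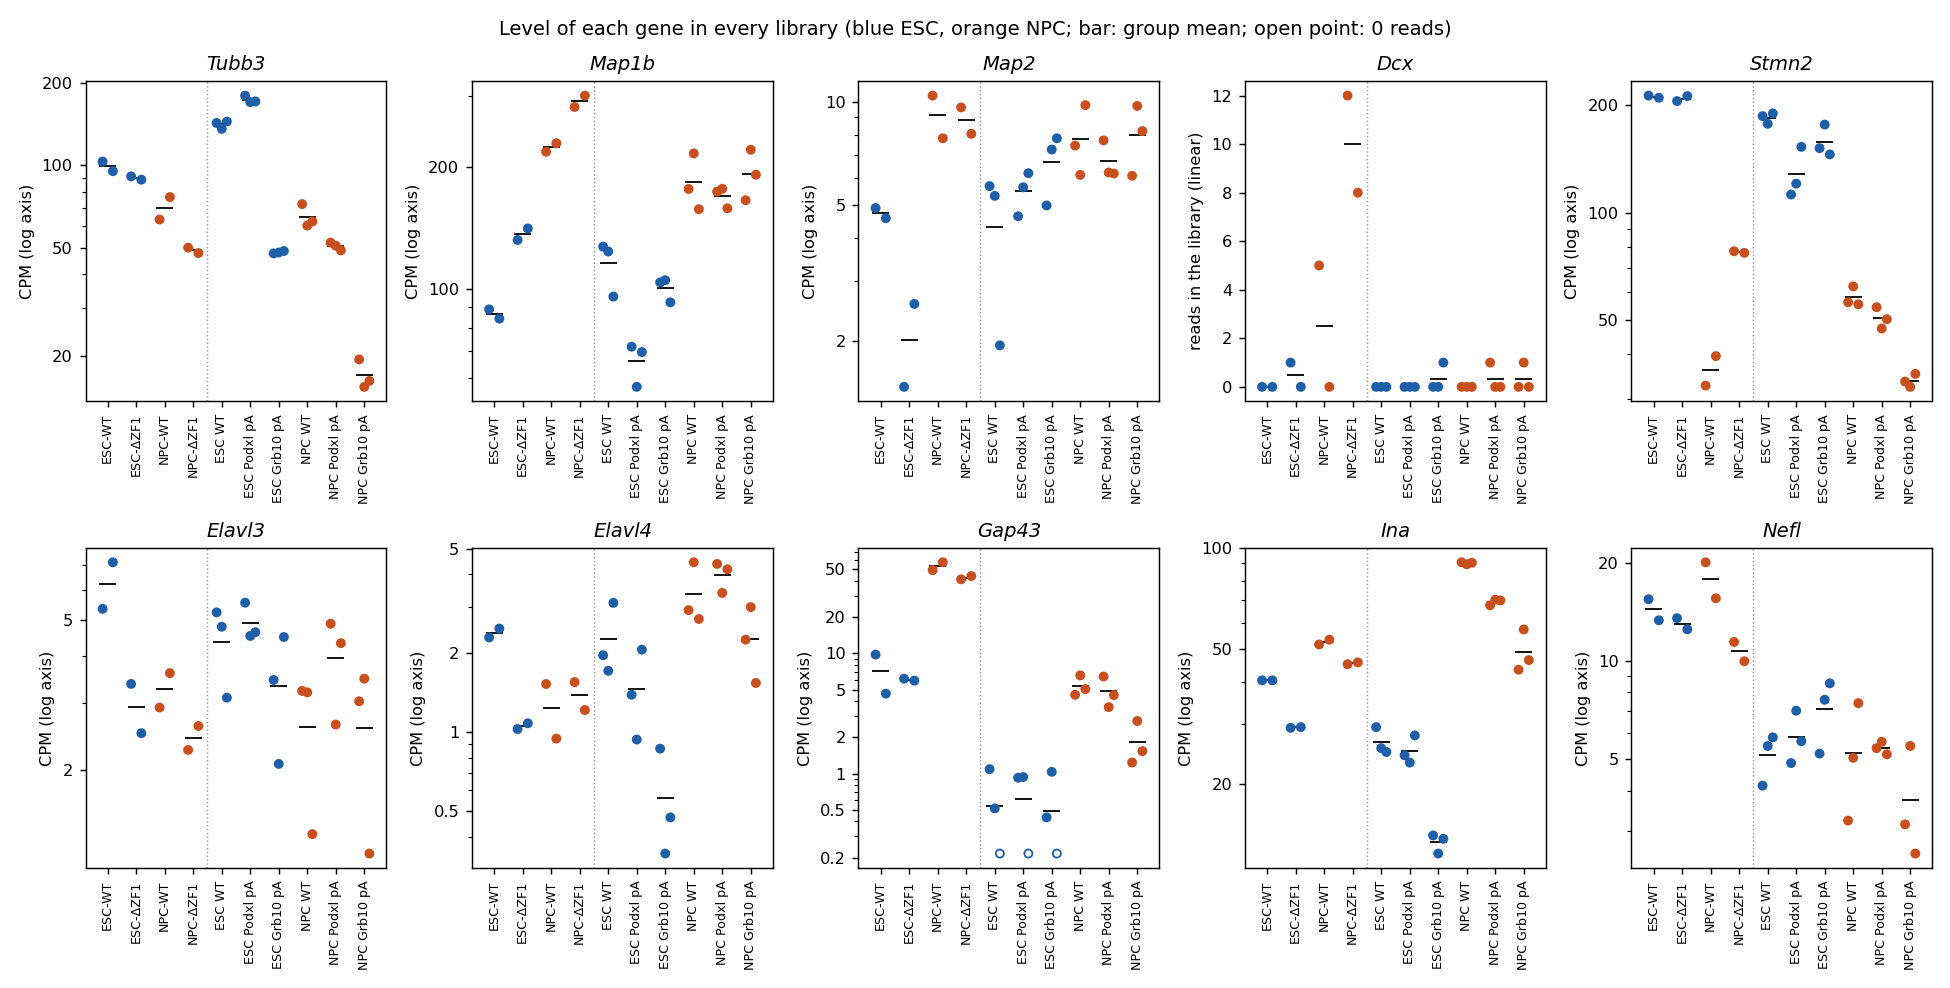
Level of each of the 10 genes in each library (CPM on a log axis, reads on a linear axis for Dcx), with ESC groups in blue, NPC groups in orange, a bar at the group mean and open points for libraries at 0 reads. Tubb3 is lowest in the Grb10 pA libraries of each cell type, Stmn2 is lower in every NPC group than in its ESC group, and Gap43 is higher in every NPC group.

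The first comparison asked how the members change as ESCs become NPCs. Gap43 and Map1b rose in both rescue lines, Stmn2 and Tubb3 fell in both, and the neurofilament gene Ina rose in 4 of the 5 lines by the test and the cutoff on size. In the WT rescue line 6 of 9 members tested passed, 3 higher and 3 lower, where 41.9% of all 16641 genes did. The median log2 fold change of the members was 0.33, against 0.01 over all genes. In the ΔZF1 line 6 of 9 passed, 4 higher and 2 lower, with 37.3% of all genes called and a member median of 0.39 against 0.02. A call needed a Benjamini-Hochberg adjusted p of at most 0.05 in edgeR's quasi-likelihood test and a change of 0.5 or more on the log2 scale, up or down. Lack of overlap between libraries is a description, and the share of all genes without overlap was not counted. These shares of members have to be read beside backgrounds that are themselves large. Markers of other cell types moved in the same comparisons. Those of neural crest and surface ectoderm summed to 96.2 to 171 CPM in ESC-WT and 2750 to 4080 CPM in NPC-WT, and to 110 to 141 and 1110 to 1170 CPM in the ΔZF1 line. In each rescue line 6 of these 8 genes were called higher, the keratins Krt8 and Krt18 among them, and 1, Foxd3, was called lower. Extraembryonic endoderm markers went from 169 to 200 up to 294 to 320 CPM in the WT rescue line, from 145 to 167 up to 2330 to 2350 CPM in the ΔZF1 line and from 83.5 to 102 up to 482 to 617 CPM in parental cells. Their part in the member values was not tested.

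Among the tubulin and microtubule-binding genes, Tubb3 (chr8:123411424-123422015, plus strand, GRCm38) was at 103 and 95.2 CPM in ESC-WT and at 63.4 and 76.6 CPM in NPC-WT. Both NPC-WT libraries were below both ESC-WT libraries, and the log2 fold change was -0.51 (SE 0.12, adjusted p = 0.00584). It passed the size cutoff narrowly, and was -0.45, -0.36, -0.498 and -0.499 without ESC-WT replicate 1, NPC-WT replicate 1, NPC-ΔZF1 replicate 1 or NPC-ΔZF1 replicate 2, in none of which it was called. In the ΔZF1 line Tubb3 was at 91.2 and 88.7 CPM in ESCs and 50 and 47.7 CPM in NPCs, a log2 fold change of -0.88 (SE 0.12, adjusted p = 0.000215). The neuronal tubulin was thus lower, not higher, after 2 days. The values of the parental lines, given as a description, were 143, 136 and 145 CPM in ESCs and 72.2, 60.2 and 62.4 CPM in NPCs, a log2 fold change of -1.13. In Podxl pA cells the NPC-to-ESC log2 fold change was -1.79 and in Grb10 pA cells it was -1.47.

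Map1b (chr13:99421446-99516540, minus strand) moved the other way. Its libraries were at 88.8 and 84.2 CPM in ESC-WT and at 219 and 230 CPM in NPC-WT, with a log2 fold change of 1.37 (SE 0.10, adjusted p = 4.44e-06). In the ΔZF1 line it went from 132 and 141 CPM to 282 and 301 CPM, a log2 fold change of 1.10 (SE 0.10, adjusted p = 1.42e-05). NPC libraries were above ESC libraries in both lines, with no overlap. In the parental and truncation lines, as a description, the log2 fold changes of Map1b were 0.67, 1.38 and 0.94 in parental, Podxl pA and Grb10 pA cells.

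Map2 (chr1:66175273-66442583, plus strand), a protein of dendritic microtubules, was low throughout, at 4.89 and 4.57 CPM in ESC-WT and 10.4 and 7.82 CPM in NPC-WT. The log2 fold change was 0.98 (SE 0.26, adjusted p = 0.0105), and without ESC-WT replicate 2 the adjusted p was 0.0944. In the ΔZF1 line Map2 rose from 1.47 and 2.57 CPM to 9.62 and 8.06 CPM, with a log2 fold change of 2.12 (SE 0.27, adjusted p = 0.000149). In parental cells its log2 fold change of 0.67 did not pass (adjusted p = 0.0594), and it passed without ESC WT replicate 1 (0.045), NPC WT replicate 2 (0.0335) or NPC Grb10 pA replicate 1 (0.0486). Map2 shares exon sequence with Gm10558, and the counting did not use strand, so its values are uncertain to that extent. Dcx (chrX:143855842-143933311, minus strand), doublecortin of migrating neurons, was under the filter on low counts in both tables. It had 0 and 0 reads in ESC-WT, 1 and 0 in ESC-ΔZF1, 5 and 0 in NPC-WT and 12 and 8 in NPC-ΔZF1, and no more than 1 read in each of the 18 other libraries.

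Stmn2 (chr3:8509360-8561606, plus strand) fell the furthest of the members in the WT rescue line. It was at 213 and 210 CPM in ESC-WT and 32.7 and 39.5 CPM in NPC-WT, 5.89-fold lower (log2 fold change -2.56, SE 0.12, adjusted p = 5.25e-07). It also fell in the ΔZF1 line, from 206 and 212 to 77.9 and 77.1 CPM (log2 fold change -1.43, SE 0.11, adjusted p = 5.21e-06). The same direction held in parental cells, from 187, 178 and 190 CPM to 56, 62 and 55.3 CPM (log2 fold change -1.66, SE 0.10, adjusted p = 2.25e-13). In Podxl pA and Grb10 pA cells the log2 fold changes were -1.33 (SE 0.10) and -2.22 (SE 0.10), with adjusted p = 2.98e-11 and 6.86e-16. In all 5 lines every NPC library was below every ESC library.

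The neurofilament genes differed from each other. Ina (chr19:47014698-47025327, plus strand), which encodes alpha-internexin, was at 40.5 and 40.5 CPM in ESC-WT and 51.7 and 53.5 CPM in NPC-WT. Its log2 fold change of 0.38 (SE 0.11, adjusted p = 0.0161) was under the size cutoff. In the ΔZF1 line Ina rose from 29.3 and 29.5 to 45.2 and 45.8 CPM (log2 fold change 0.63, SE 0.11, adjusted p = 0.000957). The increase was larger in parental cells, from 29.4, 25.5 and 24.9 CPM to 90.6, 89.4 and 90.3 CPM (log2 fold change 1.75, SE 0.11, adjusted p = 4.31e-13). Podxl pA and Grb10 pA cells had log2 fold changes of 1.5 (SE 0.11) and 1.84 (SE 0.13), with adjusted p = 1.87e-11 and 2.3e-12. Whether the parental and the rescue lines differ in this was not tested. Ina overlaps exons of Nt5c2 on the other strand.

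Nefl (chr14:68083863-68089095, plus strand), the light neurofilament chain, did not pass in 4 of the 5 lines. It was at 15.4 and 13.3 CPM in ESC-WT and 20 and 15.6 CPM in NPC-WT (log2 fold change 0.33, SE 0.18, adjusted p = 0.145), and passed without NPC-WT replicate 2 (0.52, adjusted p = 0.00229). In the parental and truncation lines Nefl ran from 2.57 to 8.53 CPM. In Grb10 pA cells it fell from 5.19, 7.59 and 8.53 to 3.15, 5.48 and 2.57 CPM (log2 fold change -0.99, SE 0.29, adjusted p = 0.00594), with overlapping libraries, and the adjusted p was 0.0526 without ESC Grb10 pA replicate 3. Nefl and Nefm overlap on opposite strands, so reads of either cannot be told apart in the overlap.

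Gap43 (chr16:42248442-42340651, minus strand) rose in all 5 lines. It went from 9.78 and 4.63 CPM in ESC-WT to 49.3 and 57.3 CPM in NPC-WT, 8.01-fold higher (log2 fold change 3.00, SE 0.26, adjusted p = 1.15e-05), and from 6.17 and 5.94 CPM to 41.4 and 44 CPM in the ΔZF1 line (log2 fold change 2.82, SE 0.25, adjusted p = 1.21e-05). The growth cone gene was thus the member with the largest increase in both rescue lines. Parental ESCs held 5, 3 and 0 reads of Gap43, and parental NPCs were at 4.53, 6.57 and 5.06 CPM (log2 fold change 3.14, SE 0.53, adjusted p = 1.92e-05). Podxl pA and Grb10 pA cells had log2 fold changes of 2.55 (SE 0.51, adjusted p = 0.000173) and 1.91 (SE 0.70, adjusted p = 0.0254). The Grb10 pA value rests on 5 reads in 3 ESC libraries, and its adjusted p was 0.069, 0.142 and 0.0806 without ESC Grb10 pA replicate 1, ESC Grb10 pA replicate 3 or NPC Grb10 pA replicate 2.

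The Elav genes were low. Elavl3 (chr9:22015005-22052023, minus strand) was at 5.35 and 7.11 CPM in ESC-WT and at 2.92 and 3.61 CPM in NPC-WT, a fall with a log2 fold change of -0.99 (SE 0.26, adjusted p = 0.00978). Without ESC-WT replicate 2 its adjusted p was 0.151. In the ΔZF1 line and in parental cells Elavl3 had log2 fold changes of -0.27 (SE 0.26, adjusted p = 0.446) and -0.73 (SE 0.37, adjusted p = 0.111). It shares exon sequence with Gm49318 on the same strand. Elavl4 (chr4:110203722-110351909, minus strand) was at 2.29 and 2.48 CPM in ESC-WT and 1.53 and 0.945 CPM in NPC-WT (log2 fold change -0.89, SE 0.35, adjusted p = 0.0565), and its adjusted p was 0.0309 without NPC-WT replicate 1. Elavl4 rose in Podxl pA cells, from 1.39, 0.937 and 2.06 to 4.37, 3.39 and 4.17 CPM (log2 fold change 1.61, SE 0.38, adjusted p = 0.00119). It rose in Grb10 pA cells as well, from 4, 1 and 2 reads, or 0.866, 0.345 and 0.474 CPM, to 2.25, 2.99 and 1.54 CPM (log2 fold change 1.84, SE 0.50, adjusted p = 0.00326). In parental cells the change was 0.76 (SE 0.36, adjusted p = 0.0873), and 0.97 with adjusted p = 0.0492 without ESC WT replicate 3.

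Of the 7 members tested that passed the filter in the parental and truncation lines, with Tubb3 and Map1b set aside, 2 were higher and 1 lower in parental NPCs than in ESCs (32.8% of 13268 genes called), 3 and 1 in Podxl pA cells (31.8%) and 3 and 2 in Grb10 pA cells (34.6%). Over all 9, with Tubb3 and Map1b included as a description, the median log2 fold changes were 0.67, 0.30 and 0.23. The medians over all genes were -0.01, -0.02 and -0.02.

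**Figure D2:**
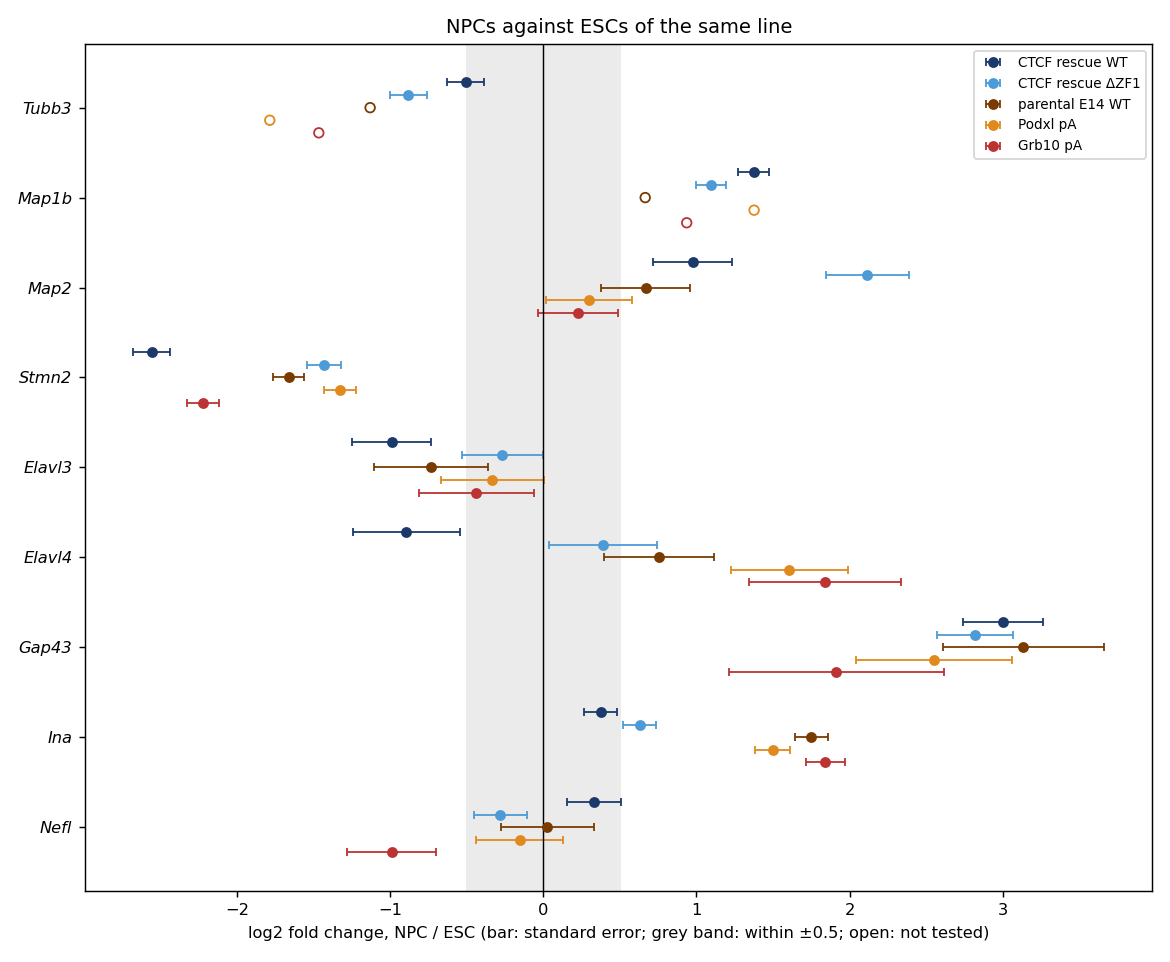
Log2 fold change between NPCs and ESCs for the 9 members that passed the filter, in the 2 rescue lines and the 3 parental and truncation lines, with bars of 1 standard error, a grey band at ±0.5 and open symbols where no test was made. Gap43 is above and Stmn2 below the band in all 5 lines, while Elavl4 lies on both sides of 0.

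The other genes of the same systems were counted from lists. Beside these counts, 41.9% of all genes were called between ESC-WT and NPC-WT and 32.8% between parental ESCs and NPCs. A count near those shares is not a result about its list. Between ESC-WT and NPC-WT, 8 of 11 growth cone and neurite surface genes rose and none fell, with L1cam up by 2.41 and Dpysl3 up by 1.49 on the log2 scale. Among 9 tested of 16 proneural and commitment factors 7 rose, led by Sox11 (2.06) and Sox4 (2.00) among those named by the rule, and 3 of 5 repressors of neuronal genes fell, including Hes1 (-1.99) and Rest (-1.09). The 13 microtubule genes were split, 5 higher and 2 lower, with Stmn4, another stathmin, up by 6.13 and Dclk2, a doublecortin-like kinase, at -2.13. Of the 5 other intermediate filament genes Prph (2.88) and Nes (1.56) rose and Nefh (-1.68) fell, and 3 of 6 neuronal RNA-binding protein genes fell, with Elavl2 at -1.78 and Nova2 at -1.24. Parental cells gave 5 of 11 growth cone genes higher and 2 lower, with Crmp1 at 3.83 and Basp1 at 2.59. There 5 of 6 commitment factors rose, with Ebf1 at 3.67 and Sox11 at 3.25, and 5 of 11 microtubule genes fell and none rose, with Mapt at -2.31 and Tubb2b at -1.49.

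The second comparison asked what the loss of zinc finger 1 changes in ESCs. Of 9 members 2 passed between ESC-ΔZF1 and ESC-WT, where 3.61% of all genes did: Map1b was higher and Elavl3 lower in ESC-ΔZF1. The member median was -0.14 and that of all genes -0.01. Map1b rose from 88.8 and 84.2 CPM to 132 and 141 CPM (log2 fold change 0.66, SE 0.10, adjusted p = 0.0136), with no overlap between the groups. Elavl3 fell from 5.35 and 7.11 CPM to 3.38 and 2.5 CPM (log2 fold change -1.12, SE 0.26, adjusted p = 0.0456). The genes of chromosome 11 were lower in the ΔZF1 line as a group (median over 1322 genes -0.46 in ESCs and -0.57 in NPCs, on the log2 scale), and no member lies there. Without chromosome 11, 1.62% of genes were called in ESCs and 14.6% in NPCs. Neither call held when any of the 4 ESC libraries or either NPC-ΔZF1 library was left out. Map1b then had adjusted p = 0.12 and 0.188 without ESC-WT replicate 1 or 2, 0.135 and 0.166 without ESC-ΔZF1 replicate 1 or 2, and 0.0522 and 0.0519 without NPC-ΔZF1 replicate 1 or 2. For Elavl3 the adjusted p without the same libraries was 0.167, 0.397, 0.196, 0.35, 0.101 and 0.101.

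Map2 was also lower in ESC-ΔZF1, at 1.47 and 2.57 CPM against 4.89 and 4.57 CPM, but did not pass (log2 fold change -1.20, SE 0.31, adjusted p = 0.0599). With DESeq2 it passed (-1.19, adjusted p = 0.0252) while Elavl3 did not (0.0555). Without NPC-WT replicate 1 or 2, Map2 (0.000354 and 0.000739) and Elavl4 (0.0277 and 0.0288) passed too. Elavl4 was at 1.03 and 1.08 CPM in ESC-ΔZF1 (log2 fold change -1.18, SE 0.37, adjusted p = 0.11 with all libraries). Ina, at 29.3 and 29.5 CPM against 40.5 and 40.5 CPM, had an adjusted p of 0.0483 but a log2 fold change of -0.46 (SE 0.11), under the size cutoff. Tubb3 (-0.14, SE 0.12), Gap43 (-0.13, SE 0.29) and Nefl (-0.13, SE 0.18) did not pass, nor did Stmn2, whose log2 fold change of -0.02 (SE 0.11) was 0.003 with DESeq2.

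In NPCs, ΔZF1 was compared with WT to ask the same of differentiating cells. Stmn2 was higher in NPC-ΔZF1 and Tubb3 and Nefl were lower, so 3 of 9 members passed, where 17.6% of all genes did, and the median of the members was -0.21 against -0.003 over all genes. Stmn2 was at 32.7 and 39.5 CPM in NPC-WT and at 77.9 and 77.1 CPM in NPC-ΔZF1, 2.15-fold higher (log2 fold change 1.11, SE 0.11, adjusted p = 0.000289). The fall of Stmn2 on differentiation was thus smaller in the ΔZF1 line, and the effect of ΔZF1 in NPCs minus its effect in ESCs was 1.13 on the log2 scale (SE 0.16, adjusted p = 0.00847). It was the single member past this test, with 2.7% of all genes called. The call was lost without ESC-WT replicate 1 or 2 (adjusted p = 0.0603 and 0.0686), ESC-ΔZF1 replicate 1 or 2 (0.0726 and 0.0619) or NPC-ΔZF1 replicate 1 or 2 (0.0725 and 0.0572), while the difference stayed between 0.98 and 1.23. Without NPC-WT replicate 1, 4 members and 26.5% of all genes were called in this test, and without NPC-WT replicate 2, 3 members and 9.36% of all genes. Besides Stmn2, the members called without NPC-WT replicate 1 were Map2 (1.37), Elavl4 (1.73) and Tubb3 (-0.52). Those called without NPC-WT replicate 2 were, besides Stmn2, Map2 (0.93) and Nefl (-0.82). With all libraries, Elavl4 (1.28, SE 0.49, adjusted p = 0.208) and Map2 (1.14, SE 0.38, adjusted p = 0.155) had differences between the cell types of a like size that did not pass.

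Tubb3 fell from 63.4 and 76.6 CPM in NPC-WT to 50 and 47.7 CPM in NPC-ΔZF1 (log2 fold change -0.51, SE 0.12, adjusted p = 0.0139). Nefl fell from 20 and 15.6 CPM to 11.4 and 9.97 CPM (log2 fold change -0.75, SE 0.17, adjusted p = 0.0129). The groups did not overlap for either gene. Tubb3 was at -0.39 without NPC-WT replicate 2, under the size cutoff, and its adjusted p was 0.0967 and 0.145 without NPC-ΔZF1 replicate 1 or 2. For Nefl it was 0.0699 and 0.149 without the same NPC-ΔZF1 libraries. Map1b was higher in NPC-ΔZF1 by 0.38 (SE 0.10, adjusted p = 0.0221), which is under the size cutoff. Gap43 (-0.32, SE 0.21), Ina (-0.21, SE 0.11), Elavl3 (-0.40, SE 0.26), Elavl4 (0.10, SE 0.33) and Map2 (-0.06, SE 0.22) did not pass.

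These NPC values go with a different make-up of marker genes. The counts of markers and list genes here stand beside 17.6% of all genes called. All 10 extraembryonic endoderm markers, Gata4, Gata6 and Sox17 among them, were higher in NPC-ΔZF1, with the sums given above. The summed level of 8 neural crest and surface ectoderm markers was 2750 to 4080 CPM in NPC-WT and 1110 to 1170 CPM in NPC-ΔZF1. Of the 8, 1 was called higher (Tfap2a) and 3 lower (Gata3, Krt8 and Krt18). Of the 5 neural progenitor markers tested, Sox1 (19.4 and 39.8 CPM) and Sox2 (28.2 and 49.5 CPM) were higher in NPC-ΔZF1 and Nes (98.3 and 54.5 CPM) lower, and the list median was 0.82 on the log2 scale. Pluripotency markers summed to 368 to 542 CPM and 439 to 453 CPM. The part of these markers in the member values was not tested. Of the lists, 1 of 13 microtubule genes rose (Stmn1, 0.58) and 4 fell, with Stmn4 at -1.49 and Tubb4a at -1.45. Vim (1.85) rose while Nefh (-1.37) and Nes (-0.85) fell among intermediate filament genes, and Ncam1 (1.27) rose while Cntn2 (-0.76) and Dpysl5 (-0.70) fell among 11 growth cone genes. Among the commitment factors 3 of 9 rose, with Ebf1 at 2.50 and Onecut2 at 1.39, and among the repressors Hes1 rose (0.96). Between ESC-ΔZF1 and ESC-WT, Nefh (-0.91) fell, and Ncam1 (0.67) and Marcks (0.61) rose.

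**Figure D3:**
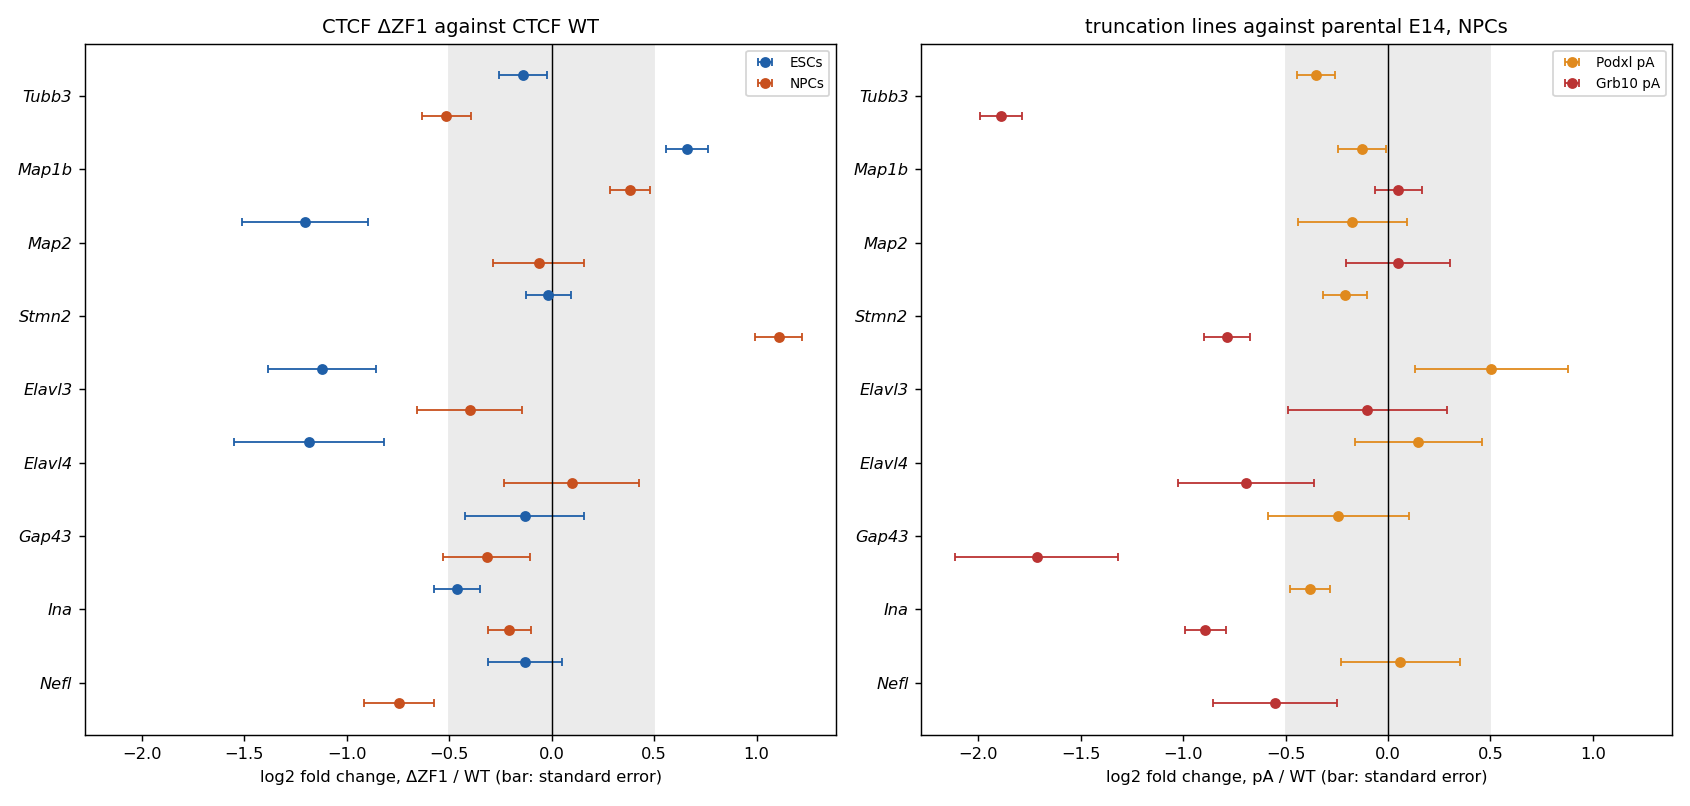
Log2 fold change of each member against WT of the same cell type, with bars of 1 standard error, for ΔZF1 in ESCs and NPCs on the left and for Podxl pA and Grb10 pA in NPCs on the right. On the left Stmn2 is at 1.11 in NPCs and -0.02 in ESCs, while Map2 (-0.06 and -1.20) and Elavl4 (0.10 and -1.18) differ between cell types by as much with larger errors. On the right Tubb3 is at -1.89 in Grb10 pA NPCs.

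The truncation lines addressed whether ending transcription of Podxl or of Grb10 early alters other genes. In Podxl pA NPCs none of the 9 members passed against parental NPCs, where 0.55% of 13268 genes did. By edgeR 2 members were at an unadjusted p under 0.05, as were 1350 of all genes, and DESeq2 called 0 members too. They were Ina, at 67.6, 70.2 and 69.9 CPM against 90.6, 89.4 and 90.3 CPM (log2 fold change -0.38, SE 0.10, adjusted p = 0.081), and Tubb3, at 52.2, 50.8 and 48.9 CPM against 72.2, 60.2 and 62.4 CPM (-0.35, SE 0.09, adjusted p = 0.0897). For both genes every Podxl pA library was below every parental one, as it was for Stmn2 (-0.21, SE 0.11, adjusted p = 0.538). Map1b was at 174, 177 and 158 CPM in Podxl pA NPCs and 177, 217 and 157 CPM in parental NPCs, overlapping, with a log2 fold change of -0.13. The member median was -0.17, against -0.001 over all genes. Of the 43 genes tested on the 6 lists edgeR called 0, with 6 at an unadjusted p under 0.05, and DESeq2 called 0. Extraembryonic endoderm markers summed to 903 to 977 CPM in Podxl pA NPCs and 482 to 617 CPM in parental NPCs, with 4 of 8 tested called higher, and their part in the member values was not tested.

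The Podxl pA and parental ESCs, one of the comparisons that chose the members, are given without a test, and 0.339% of all genes were called in it. Map1b was at 71.7, 57 and 69.6 CPM in Podxl pA ESCs and at 127, 124 and 95.5 CPM in parental ESCs, a log2 fold change of -0.84. Stmn2 was at 112, 121 and 153 CPM against 187, 178 and 190 CPM (-0.54), with no overlap, and Tubb3 was at 180, 171 and 172 CPM against 143, 136 and 145 CPM (0.30). The lower Map1b of Podxl pA ESCs thus had no counterpart of that size in NPCs of the same clone, though the difference between the cell types was not tested. Map1b was the member with the lowest value in these ESCs and the median of the 9 members was 0.11.

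In Grb10 pA NPCs 4 of 9 members passed against parental NPCs, all lower, where 8.64% of all genes were called lower and 16.5% in either direction. They were Tubb3, Gap43, Ina and Stmn2. Of these, Tubb3 was chosen by its low counts in ESCs of this same clone, so the count of 4 is not independent of that choice. Tubb3 was at 19.5, 15.5 and 16.2 CPM against 72.2, 60.2 and 62.4 CPM, 3.7-fold lower (log2 fold change -1.89, SE 0.10, adjusted p = 8.58e-13). Ina was at 43.6, 57.3 and 46.5 CPM against 90.6, 89.4 and 90.3 CPM (-0.89, SE 0.10, adjusted p = 2.09e-07). Stmn2 was at 33.5, 32.4 and 35.2 CPM against 56, 62 and 55.3 CPM (-0.79, SE 0.11, adjusted p = 7.91e-06). The tubulin, neurofilament and stathmin genes were each lower with no overlap between the groups. Gap43, with 11, 11 and 9 reads in Grb10 pA NPCs, was at 1.24, 2.74 and 1.54 CPM against 4.53, 6.57 and 5.06 CPM (-1.71, SE 0.40, adjusted p = 0.00199). All 4 calls held under each of the 28 alternative settings.

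Elavl4 (-0.69, SE 0.33, adjusted p = 0.122) and Nefl (-0.55, SE 0.30, adjusted p = 0.184) were lower without passing, and Map1b (0.05), Map2 (0.05) and Elavl3 (-0.10) were near 0. The member median was -0.69, against 0.01 over all genes. Other genes of these systems were called in both directions, beside 16.5% of all genes. Of 5 other intermediate filament genes 4 fell, Nes by 1.40 and Prph by 0.63 on the log2 scale, and of 11 growth cone genes 4 fell and none rose, with Crmp1 at -1.49 and Dpysl5 at -1.31. Of 11 microtubule genes 3 rose and none fell, with Tubb2a, another beta-tubulin, at 0.63, so the lower Tubb3 was not shared by the tubulin genes of that list. Among RNA-binding protein genes 3 of 5 fell, with Ptbp2 at -0.72 and Elavl2 at -0.65, Ebf1 (-1.07) fell among the commitment factors, and Hes1 (0.62) rose among the repressors. Of the 4 neural progenitor markers tested, Sox1 (25.6 against 79.3 CPM in parental NPCs), Nes (8.61 against 22 CPM) and Pax6 (3.55 against 7.9 CPM) were lower and Sox2 (136 against 93.5 CPM) was higher. The pluripotency markers Esrrb, Nanog and Tfcp2l1 were higher and Klf2 and Klf4 lower, with sums of 784 to 841 and 660 to 753 CPM. Mesoderm markers summed to 71.2 to 88.7 CPM, against 38.2 to 44.2 CPM, with Eomes and Hand1 higher, and extraembryonic endoderm markers to 416 to 527 against 482 to 617 CPM, with 3 of 8 lower. The part of these markers in the member values was not tested.

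The Grb10 pA and parental ESCs are again given without a test, with 9.09% of all genes called. Tubb3 was at 47.6, 48 and 48.6 CPM in Grb10 pA ESCs against 143, 136 and 145 CPM, a log2 fold change of -1.55. Elavl4 had 4, 1 and 2 reads, or 0.866, 0.345 and 0.474 CPM, against 1.96, 1.71 and 3.11 CPM (-1.78), and Ina was at 14.1, 12.4 and 13.7 CPM against 29.4, 25.5 and 24.9 CPM (-0.98). Tubb3, Elavl4 and Ina had no overlap between the groups, nor did Stmn2 at -0.23. Map2 (0.49) and Nefl (0.46) lay above 0, and the median of the 9 members was -0.39. The Tubb3 value in NPCs comes from libraries that did not choose it but from the same clone, so it does not stand independent of the clone.

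Tubb3 lies on chromosome 8, and genes of that chromosome were lower in the Grb10 pA clone as a group. The median log2 fold change of its 730 genes was -0.49 in ESCs and -0.48 in NPCs, while no other autosome had a median outside -0.02 to 0.07 in ESCs or -0.02 to 0.06 in NPCs. The value of Tubb3 minus that median was -1.07 in ESCs and -1.41 in NPCs on the log2 scale. Of the 730 genes of chromosome 8, 12 in ESCs and 9 in NPCs had values as low as that of Tubb3 or lower, Tubb3 included. The ESC values of Tubb3 are those that chose it, so a low place among these genes and its neighbours was given in advance. Its NPC values come from the same clone and are not independent of that choice. With the chromosome's median taken into the offsets, Tubb3 in NPCs was at -1.41 with adjusted p = 2.62e-10. The 14 genes tested within 300 kb of Tubb3 were below 0 in both cell types, with a median of -0.33 in ESCs (-0.92 to -0.03) and -0.58 in NPCs (-1.02 to -0.08), and 8 of the 14 were called lower in NPCs. Its nearest neighbours, Tcf25, 7.6 kb before it, and Def8, 1.5 kb after it, were at -0.76 and -0.53 in NPCs, and Spire2 was the lowest of the 14. Tubb3 was lower than each of them in both cell types. In Podxl pA NPCs 12 of the 14 neighbours were below 0, with a median of -0.11. The cause of the shift of chromosome 8 was not tested. None of the other members lies on chromosome 8.

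**Figure D4:**
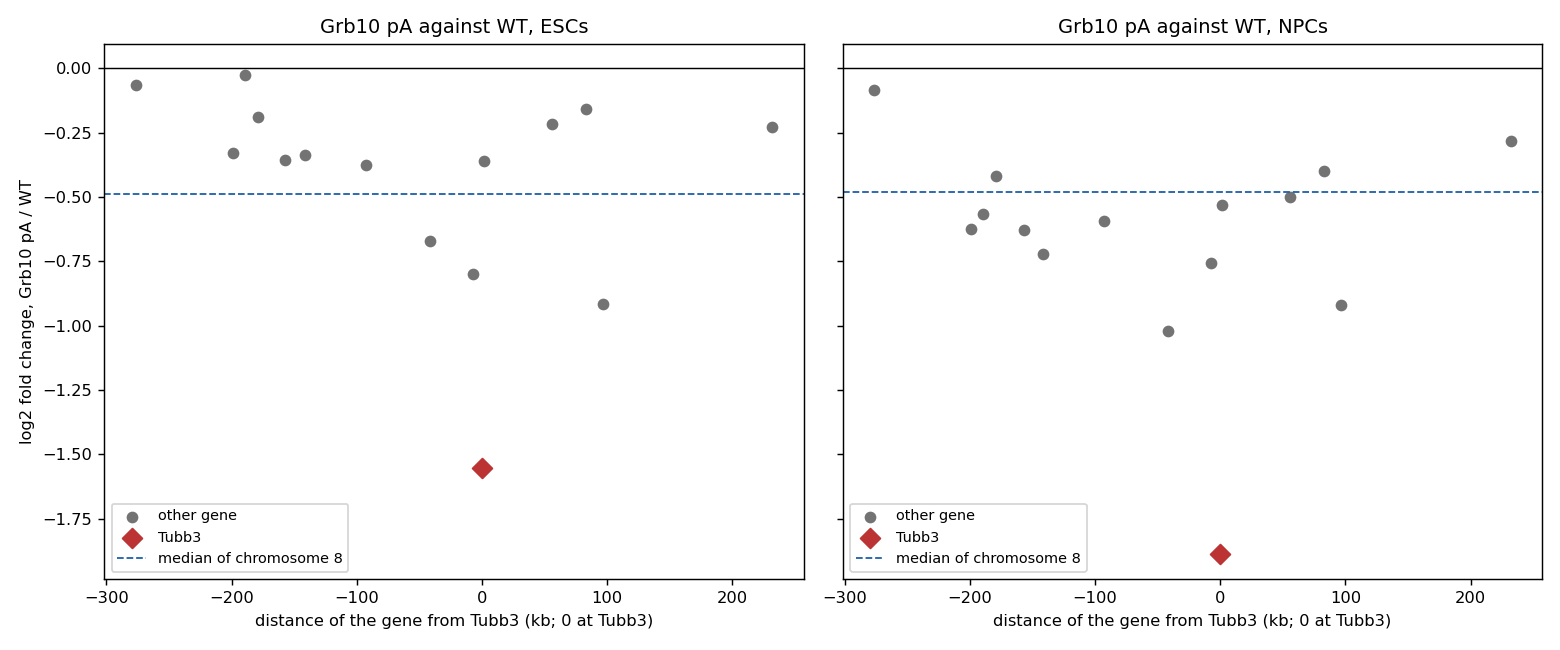
Log2 fold change between Grb10 pA and parental cells for Tubb3 and the 14 genes tested within 300 kb, by distance from Tubb3 in kb, for ESCs and NPCs, with dashed lines at the median of chromosome 8. Tubb3 at -1.55 and -1.89 lies below all 14 neighbours, which themselves lie between -1.02 and -0.03. The ESC value of Tubb3 is one that chose the members.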

How the data were processed

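Total RNA was depleted of rRNA and sequenced in paired reads. The authors aligned the reads with STAR to mm10 and counted them on genes with featureCounts without strand, and the deposited values are raw counts in 2 tables, with versions and annotation not given in the sources used here. Of the columns, 3 match no sample and were not used. Members and lists were chosen with earlier results of these data known. Each table was fitted alone in edgeR 4.0.16 (R 4.3.3), with TMM factors, edgeR's low-count filter, all libraries and a mean per group, and groups were compared with quasi-likelihood F tests and Benjamini-Hochberg adjustment. The SE is the log2 fold change divided by the square root of F. CPM used TMM-scaled library sizes, and exon lengths and positions came from GENCODE M21, matched to 96.2% of symbols. On simulated counts with 2-fold changes, 93.6% (rescue) and 94.4% (other lines) of changed genes were found, and 6.8% and 4% of calls were false. Alternatives were DESeq2 1.42.0, RLE, other filters and thresholds, a replicate block, only the groups compared, and each library left out. In the rescue lines chromosome 11 was also left out. In the other lines chromosome 8 was left out of the normalization only, or its median was taken into the offsets. Of each list, up to 2 called genes a direction with at least 50 mean normalized counts were named. Replicates differed by more than sampling noise.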

Additional observations from a re-analysis of the deposited data

Results flagged for a closer look

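The effect of ΔZF1 on Stmn2 differed between cell types by a test of the difference itself, 1.13 on the log2 scale in edgeR's interaction contrast. Stmn2 was higher in both NPC-ΔZF1 libraries than in both NPC-WT libraries, while the ESC libraries of the 2 genotypes overlapped. The call on the difference was lost when any ESC or NPC-ΔZF1 library was left out, and the NPC-WT libraries stood far apart.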

How the results depend on the processing

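Of the 4 members called in Grb10 pA NPCs none lost its call, and Stmn2 (0.97 to 1.23 on the log2 scale) kept its call between NPC-ΔZF1 and NPC-WT, under every alternative run. The members called between ESC-ΔZF1 and ESC-WT, 2 as reported, were 1 with RLE normalization, 1 with the replicate block, 1 without chromosome 11, 0 at an adjusted p of at most 0.01 and 4 with only the libraries compared, and ran from 0 to 4 with a library left out. Between NPC-ΔZF1 and NPC-WT the 3 members called became 1 at the stricter p and 1 with only the libraries compared, and 1 to 3 with a library left out. The 1 member of the difference between these effects became 0 to 4 with a library left out. Between Grb10 pA NPCs and ESCs the 5 became 3 with only the libraries compared, and 3 to 5 with a library left out, 3 without ESC Grb10 pA replicate 3. The cause was not tested.

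Values that changed sign were small and not called. Stmn2 between ESC-ΔZF1 and ESC-WT was at 0.003 with DESeq2, 0.003 with RLE and 0.002 without the filter, and Nefl between parental NPCs and ESCs was at -0.009 with the replicate block. With a library left out, the ranges that crossed 0 were -0.017 to 0.01 for Stmn2 and -0.67 to 0.40 for Gap43 between ESC-ΔZF1 and ESC-WT. They were -0.25 to 0.18 for Map2 and -0.16 to 0.54 for Elavl4 between NPC-ΔZF1 and NPC-WT, and -0.73 to 0.35 for Gap43 in the difference of these effects. For Podxl pA NPCs they were -0.22 to 0.024 for Map1b, -0.37 to 0.002 for Map2 and -0.13 to 0.30 for Nefl. For Grb10 pA NPCs they were -0.053 to 0.20 for Map1b, -0.15 to 0.25 for Map2 and -0.33 to 0.22 for Elavl3. For Nefl between NPCs and ESCs they were -0.20 to 0.22 in parental and -0.30 to 0.071 in Podxl pA cells.

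Counts over all genes moved as well. Between ESC-ΔZF1 and ESC-WT 601 genes were called, against 1088 without the filter, 52 at an adjusted p of at most 0.01, 1601 with only the libraries compared and 249 without chromosome 11, and 8 to 1750 with a library left out. For NPC-ΔZF1 and NPC-WT the 2936 became 1455 at the stricter p, 1222 with only the libraries compared and 943 to 5870 with a library left out. For the difference the 449 became 710 with DESeq2, 1139 without the filter, 74 at the stricter p and 54 to 4673 with a library left out, the highest without NPC-WT replicate 1. Grb10 pA NPCs had 2195, or 3727 with no threshold on size. Podxl pA NPCs had 73, or 40 at the stricter p and 133 with only the libraries compared, and Podxl pA ESCs had 45, or 94 without the filter and 22 with only the libraries compared. The correlation of deviations of same-numbered libraries was over 0.1 for 2 of 6 pairs of groups in the rescue lines (-0.14 to 0.13) and for 1 of 45 pairs of libraries in the others, which is not every pair, so the block is given only as an alternative, under which Elavl3 between ESC-ΔZF1 and ESC-WT had an adjusted p of 0.0719 and was no longer called. Depth limits Dcx, Gap43 in parental and truncation ESCs and both Elav genes, which rest on few reads.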

Other observations

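The genes whose pattern was most like the mean of the 9 members with enough reads were Tbc1d9 (Pearson r = 0.895), Smarce1 (0.833), H3f4 (0.782), Bptf (0.781) and Actg1 (0.779). They were taken from 9260 genes over 26 libraries, each gene scaled within its table, and the libraries share cell types, clones and depth, so the values are a description without a test. The members did not move as a unit. The correlation of each with the mean of the others ran from -0.54 for Stmn2 to 0.48 for Ina over the same libraries.

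Among the other list genes, Insm1, a factor of neuroendocrine and neuronal commitment, rose by 3.92 on the log2 scale (SE 0.29) between ESC-ΔZF1 and NPC-ΔZF1, and Tuba1a, an alpha-tubulin, by 1.43 (SE 0.11). In the same comparison Map1a (-1.31, SE 0.17) and Nefh (-2.14, SE 0.19) fell, although Map1b and Ina rose. In Grb10 pA cells the NPC libraries had more Sox11 (3.91, SE 0.21) and Sox4 (3.23, SE 0.18) and more Basp1 (3.03, SE 0.13) than ESCs, and less Cntn2 (-1.09, SE 0.27) and Dpysl2 (-1.04, SE 0.10), all called by edgeR. Podxl pA cells gave Sox11 3.40 (SE 0.18), Ebf1 3.83 (SE 0.26) and Crmp1 3.17 (SE 0.16) higher in NPCs than in ESCs, and Mapt -2.05 (SE 0.22) lower.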
